A study of Mus musculus with 12 samples.

Results

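The 10 genes described here encode parts of the circadian clock and were chosen by name from the 14244 genes of the table: *Arntl* and *Npas2*, the *Per* genes *Per1*, *Per2* and *Per3*, *Cry1*, the nuclear receptors *Nr1d1* and *Nr1d2*, and the output factors *Dbp* and *Tef*. All 10 were found, and all 10 were among the 12808 genes tested. RNA was sequenced from gut epithelial cells of 5 wild type (WT) and 7 *Chd8L*+/- mice, 1 library a mouse, all C57BL/6 males 8 weeks old. *Chd8L*+/- mice carry in every tissue a heterozygous deletion of exons of *Chd8*, a chromatin remodelling factor, and the WT mice were their littermates. The mice lived on a daily light and dark cycle with free access to food. The hour at which each mouse was killed and the segment of gut are not given in the sources used here.

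In the clock, the protein of *Arntl* (BMAL1) pairs with CLOCK or NPAS2, binds E-boxes and switches on the *Per*, *Cry*, *Nr1d*, *Dbp* and *Tef* genes. PER and CRY proteins then block the pair, and the NR1D proteins (REV-ERBs) switch *Arntl* and *Npas2* off through ROR elements. As a result *Arntl* RNA is high when *Dbp* and *Nr1d1* RNA is low, and the reverse, over each day. Gut epithelial cells hold such a clock, which is known to follow the time of feeding as well as light.

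Each library is therefore a single moment of a daily cycle. A mouse collected at another hour, a shifted clock and a change in level cannot be told apart in these libraries, and neither can fewer cells of a type and less RNA per cell.

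The short elements through which this loop works are shown first, where their letters were found close to the start of a member. RefSeq (GRCm38.p6) had promoter entries for 9 of the 10 members, in 12 windows of 250 bases before a start, and both strands were searched. Capitals mark the E-box CACGTG in the first 4 stretches and the D-box TTATGTAA, the element of DBP, TEF and HLF, in the last 2.
*Per1*, E-box, chr11:69098771-69098800, plus strand: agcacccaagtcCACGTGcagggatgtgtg
*Cry1*, E-box, chr10:85185097-85185126, minus strand: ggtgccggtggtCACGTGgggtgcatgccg
*Tef*, first start, E-box, chr15:81802534-81802563, plus strand: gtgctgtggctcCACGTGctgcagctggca
*Tef*, other start, E-box, chr15:81811264-81811293, plus strand: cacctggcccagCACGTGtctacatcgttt
*Per3*, D-box, chr4:151044852-151044881, minus strand: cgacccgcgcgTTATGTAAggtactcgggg
*Per3*, D-box, chr4:151044805-151044834, minus strand: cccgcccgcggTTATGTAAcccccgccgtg

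The E-boxes began 166 bases before the first start of *Per1*, 60 before that of *Cry1*, and 127 and 138 before the 2 starts of *Tef*. The window of the other start of *Per1* held no match. E-boxes were found in 6.02% of all 32851 promoters of the table, and D-boxes in 0.819%. The D-boxes of *Per3* began 205 and 158 bases before its start. The core of a ROR element, AGGTCA, which is in 14.0% of promoters, lay in the windows of the first start of *Per1* and of *Nr1d2*. In all, 5 of the 9 members had a match. The windows of *Arntl*, *Npas2*, *Dbp* and *Nr1d1* held none. These matches are letters in a short window and were not tested for binding.

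All 12 libraries held 15691662 to 20761315 reads. *Chd8* itself (chr14:52198151-52257780, minus strand) averaged 953 ± 85.5 normalized counts in WT (SD, n = 5) and 1297 ± 123 in *Chd8L*+/- (SD, n = 7), with no overlap between the genotypes (unadjusted exact permutation p = 0.00126, the smallest these groups allow). Its log2 fold change of 0.44 by limma had an adjusted p of 0.121, against 0.107 by edgeR and 0.00357 by DESeq2. Its reads come from all exons together, and the deleted ones cannot be told apart in that total. WT replicate 2 stood among the *Chd8L*+/- libraries on the first principal component, which held 39.7% of the variance, at 41.0 against -67.5 to -26.2 for the other WT libraries. All 8 epithelial markers were measured, with summed levels of 159800 to 278300 in WT and 154700 to 276900 in *Chd8L*+/-. Their mean log2 level was 13.89 to 14.60 in WT. In *Chd8L*+/- replicates 1 to 7 it was 14.52, 14.33, 13.96, 14.03, 14.21, 13.92 and 13.90, lowest in replicates 3, 6 and 7, which had the most *Arntl*.

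Between the genotypes, *Arntl* and *Npas2* averaged higher in *Chd8L*+/- libraries and the other 8 members lower (*Cry1* was at 0.096 with the library number as a block), but no member passed the test. Of the 10 members, 0 were called by limma at an adjusted p of 0.05, beside 0.0234% of all genes tested, and 0 were called by edgeR, beside 0.039%. DESeq2, run on the recovered reads, called 1 member, *Arntl*, which was higher, beside 6.29% of all genes in either direction and 1.8% higher. Before adjustment limma placed 6 members at a p of 0.05 or less, 1 higher and 5 lower, against 24.3% of all genes, 12.5% higher and 11.8% lower. The median log2 fold change was -0.62 over the members and 0.014 over all genes. No member separated the genotypes without overlap, as 0.515% of all genes did.

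**Figure D1:**
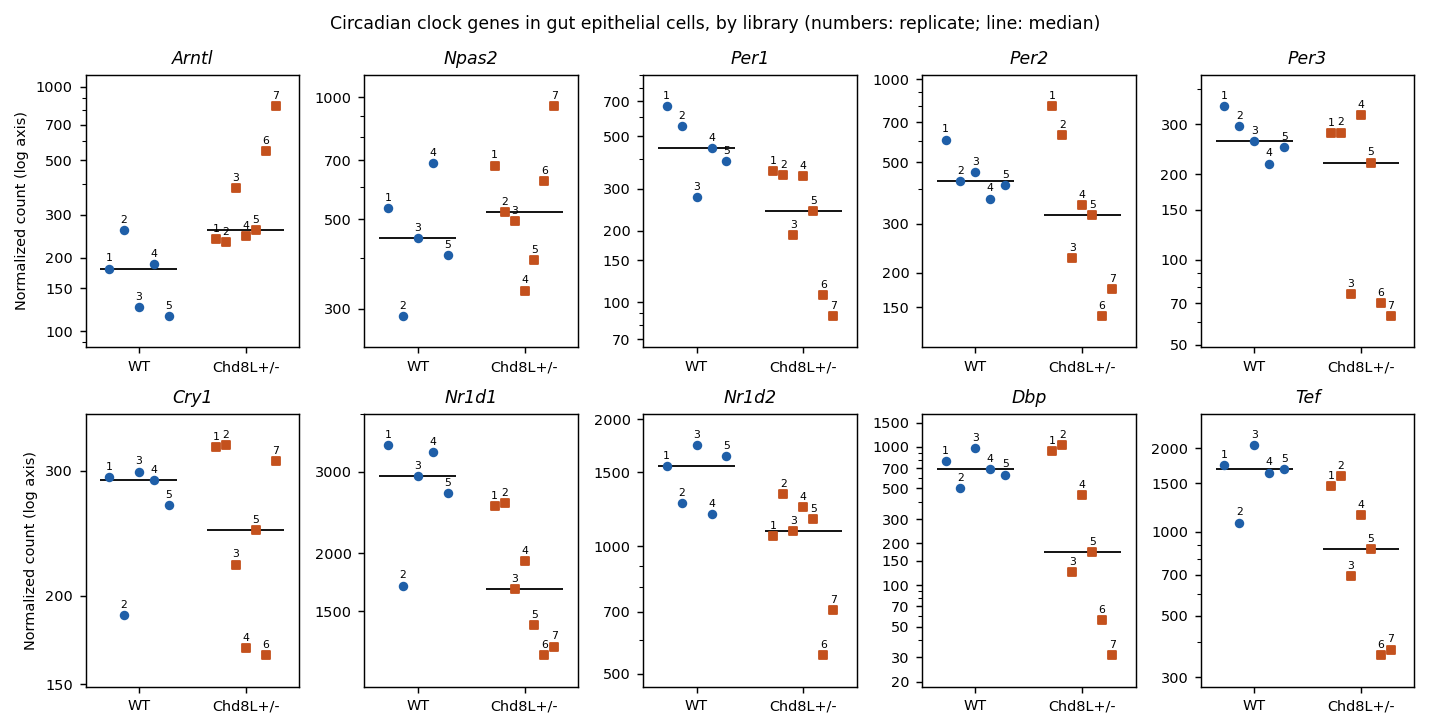
Normalized counts (log axis) of the 10 clock genes in each library, with WT as circles, *Chd8L*+/- as squares, the replicate number above each point and a line at the median. *Chd8L*+/- replicates 6 and 7 are the 2 lowest of all 12 libraries for 7 of the 10 genes, while replicates 1 and 2 stand near the WT libraries.

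*Arntl* (chr7:113207465-113314126, plus strand) encodes the partner that every activating clock complex needs. Its normalized counts in WT replicates 1 to 5 were 180.4, 259.8, 125, 187 and 115, and those of the *Chd8L*+/- libraries ran from 232 through a median of 259.8 to 833. The high values were those of *Chd8L*+/- replicates 3, 6 and 7, at 386, 543.5 and 833, and 3 of the 7 libraries lay inside the WT range. The mean was 173.6 ± 57.9 in WT (SD, n = 5) and 391 ± 226 in *Chd8L*+/- (SD, n = 7). The log2 fold change was 1.06 (SE 0.33), with an adjusted p of 0.121 by limma and an unadjusted two-sided exact permutation p of 0.0177. DESeq2 gave an adjusted p of 0.0253. Without WT replicate 2, limma called *Arntl* at 1.22 with an adjusted p of 0.0185, in a fit that called 27.6% of all genes.

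*Npas2* (chr1:39193731-39363236, plus strand), which can stand in for CLOCK beside BMAL1, was less divided. WT replicates 1 to 5 had 531.5, 288, 449, 686 and 407.5 normalized counts, and the *Chd8L*+/- libraries 333 at the lowest, 519.9 at the median and 952 at the highest. Only *Chd8L*+/- replicate 7 lay outside the WT range. Its log2 fold change of 0.25 (SE 0.25) had an adjusted p of 0.554 by limma and an exact permutation p of 0.393.

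Among the repressors that BMAL1 switches on, *Per1* (chr11:69095217-69109960, plus strand) had the lowest *Chd8L*+/- mean against WT. Its WT libraries held 669, 553, 277, 444 and 394 normalized counts, and the *Chd8L*+/- libraries 87.6 at the lowest, 242 at the median and 356 at the highest. Replicates 3, 5, 6 and 7 of *Chd8L*+/- lay below all WT libraries, while the other 3 lay inside the WT range. This made a log2 fold change of -1.09 (SE 0.36), with an adjusted p of 0.126 by limma and an exact permutation p of 0.0265.

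*Per2* (chr1:91415982-91459324, minus strand) and *Per3* (chr4:151003652-151044665, minus strand) varied more within *Chd8L*+/- than between the genotypes. *Per2* had 604, 428, 463, 369.9 and 414 normalized counts in WT replicates 1 to 5, and ran from 139 through 322 to 799.8 in *Chd8L*+/-. No *Chd8L*+/- library lay inside the WT range of *Per2*: replicates 1 and 2 were above it and the other 5 below it. *Per3* had 348, 296, 262, 218 and 249.5 in WT, and 63.2 at the lowest, 220.0 at the median and 323.5 at the highest in *Chd8L*+/-.

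Replicates 3, 6 and 7 of *Chd8L*+/- had 75.6, 70.1 and 63.2 counts of *Per3*, below every WT library, and the other 4 lay inside the WT range. The log2 fold change was -0.51 (SE 0.37) for *Per2* and -0.83 (SE 0.43) for *Per3*, with adjusted p of 0.408 and 0.242 by limma. With replicates 3, 6 and 7 left out together, a choice made after their values were seen, both changed sign, to 0.12 for *Per2* and 0.0097 for *Per3*. *Per3* lies on the same strand as part of *Camta1*, so reads of the overlap are uncertain.

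*Cry1* (chr10:85131700-85185064, minus strand), whose protein is the main blocker of the BMAL1 pair together with PER, had the smallest difference of the 10. Its normalized counts were 294, 188, 299.5, 292 and 268 in WT, and 165 at the lowest, 247 at the median and 326 at the highest in *Chd8L*+/-. The *Chd8L*+/- libraries lay on both sides, 3 above and 2 below the WT range. Between the means the log2 fold change was -0.12 (SE 0.21), with an adjusted p of 0.737 by limma and an exact permutation p of 0.571.

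*Nr1d1* (chr11:98767932-98775333, minus strand) and *Nr1d2* (chr14:18204054-18239127, minus strand) encode the REV-ERB repressors of *Arntl*. *Nr1d1* had 3422, 1702, 2940, 3303 and 2702 normalized counts in WT, and 1204 at the lowest, 1675 at the median and 2568 at the highest in *Chd8L*+/-. WT replicate 2 was low, and without it all 7 *Chd8L*+/- libraries would lie below the WT libraries. The log2 fold change was -0.67 (SE 0.23), with an adjusted p of 0.127 by limma and an exact permutation p of 0.0278. Without WT replicate 2 it was -0.84, and limma then called it at an adjusted p of 0.0129, with 27.6% of all genes called in that fit. *Nr1d1* overlaps *Thra*, and *Dbp* overlaps *Sphk2*, on the opposite strand, and the strand setting of the counting is not given in the sources used here.

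*Nr1d2* had 1548, 1266, 1735, 1191 and 1634 normalized counts in WT, and ran from 553 through 1085 to 1331 in *Chd8L*+/-. Replicates 6 and 7 of *Chd8L*+/-, at 553 and 708, were well below the rest, and 5 of the 7 libraries lay below the WT range. Its log2 fold change of -0.58 (SE 0.21) had an adjusted p of 0.135 by limma and an exact permutation p of 0.0278.

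*Dbp*, a direct target of BMAL1 with a steep daily rhythm in most tissues, spread furthest. WT replicates 1 to 5 had 789, 501, 976, 690.3 and 629.5 normalized counts (chr7:45705088-45710203, plus strand). *Chd8L*+/- replicates 1 to 7 had 928, 1026, 124, 445, 174, 55.5 and 31.1. Replicate 2 was thus the highest and replicate 7 the lowest of all 12 libraries, 33.0-fold apart, while the WT libraries spanned 1.95-fold. Its log2 fold change was -1.75 (SE 0.76), with an adjusted p of 0.182 by limma and an exact permutation p of 0.0884. On recovered reads it was smaller, -0.83 by edgeR and -0.85 by DESeq2, with adjusted p of 0.461 and 0.485.

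*Tef* (chr15:81802421-81826863, plus strand), a related factor that binds the same D-box, followed a similar order in a narrower range. Its WT libraries had 1744, 1080, 2051, 1635 and 1688 normalized counts, and the *Chd8L*+/- libraries 359.6 at the lowest, 866.5 at the median and 1592 at the highest. Replicates 6 and 7 of *Chd8L*+/- were at 359.6 and 377, and 4 of the 7 libraries lay below the WT range. The log2 fold change was -0.99 (SE 0.36), with an adjusted p of 0.136 by limma and an exact permutation p of 0.0391. Without WT replicate 2 it was -1.14 with an adjusted p of 0.0405 by limma, in the fit that called 27.6% of all genes.

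**Figure D2:**
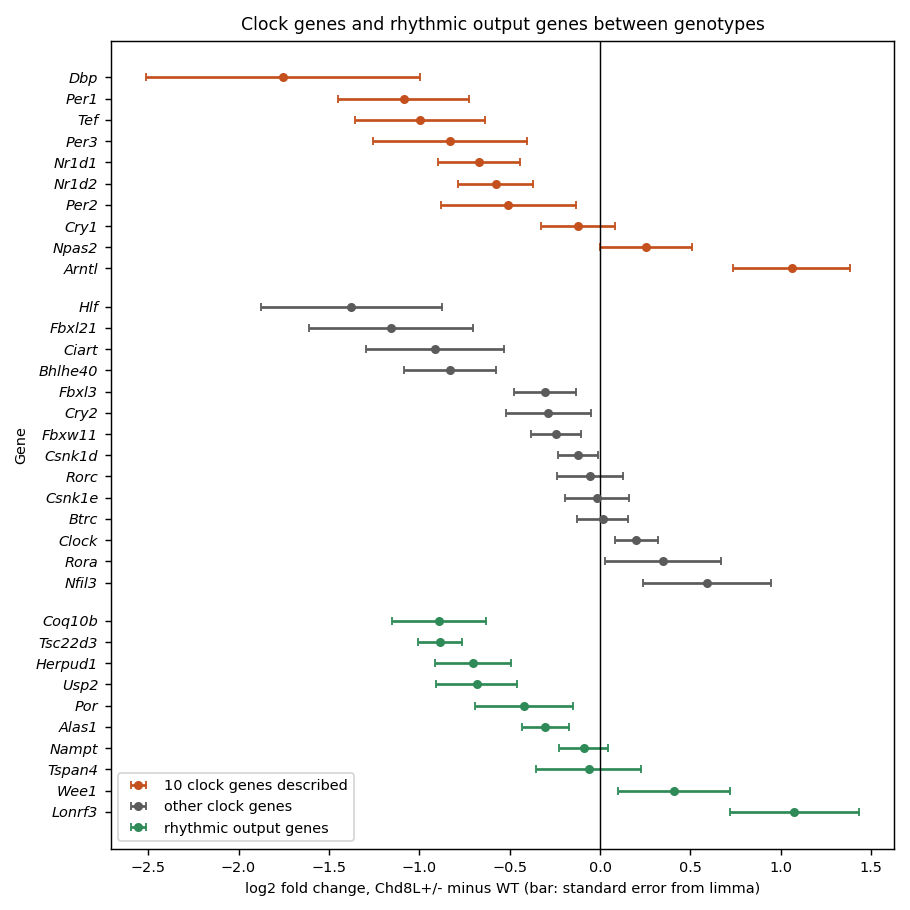
Log2 fold change of each clock gene, *Chd8L*+/- minus WT, of other clock genes and of rhythmic output genes, with bars for the standard error from limma (5 WT and 7 *Chd8L*+/- libraries). By limma those of the 10 genes described run from -1.75 for *Dbp* to 1.06 for *Arntl*, and none of these 10 passed an adjusted p of 0.05. By DESeq2 *Dbp* was at -0.85.

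These differences were smaller without *Chd8L*+/- replicates 3, 6 and 7, left out together after their values were seen. Over the other 4 *Chd8L*+/- libraries the log2 fold change was 0.55 for *Arntl*, -0.50 for *Per1*, -0.42 for *Nr1d1*, -0.29 for *Nr1d2*, -0.42 for *Dbp* and -0.38 for *Tef*. limma then called 0 members and 0 of all genes at an adjusted p of 0.05, with 1 member and 2068 genes past 0.05 before adjustment.

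Per kilobase of exon, which allows levels of different genes to be set side by side only roughly, *Nr1d1* was the most abundant member in WT at 914 ± 222.5 normalized counts per kb (SD, n = 5). The length joins all annotated exons of a gene, not those of the transcript expressed, so a gene with unused annotated exons reads too low. *Nr1d2*, *Dbp* and *Tef* followed at 273 ± 43.6, 239.6 ± 59.6 and 208 ± 44.8 per kb, and these did not differ beyond their spread. *Npas2*, *Per1*, *Cry1* and *Per2* lay between 77.8 and 98.6 per kb, again within their spread of each other. *Per3* and *Arntl* were lowest, at 28.6 ± 5.17 and 23.1 ± 7.70 per kb, and did not differ from each other beyond their spread. In *Chd8L*+/- libraries *Arntl* averaged 51.9 ± 30.04 per kb (SD, n = 7) and *Per3* 19.5 ± 11.9.

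The spread between libraries of a genotype was wide for these genes. The fold between the highest and the lowest library had a median of 1.92 over the members in WT and 3.83 in *Chd8L*+/-. On the log2 scale, the SD was larger in *Chd8L*+/- than in WT for 10 of 10 members, as it was for 42.8% of all genes. It was 0.36 in WT and 1.94 in *Chd8L*+/- for *Dbp*, 0.26 and 1.06 for *Per3*, and 0.41 and 0.45 for *Nr1d1*. The residual SD within genotypes had a median of 0.67 over the members and 0.35 over all genes, and that of *Dbp*, 1.52, was in the top 1.5% of all genes.

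**Figure D3:**
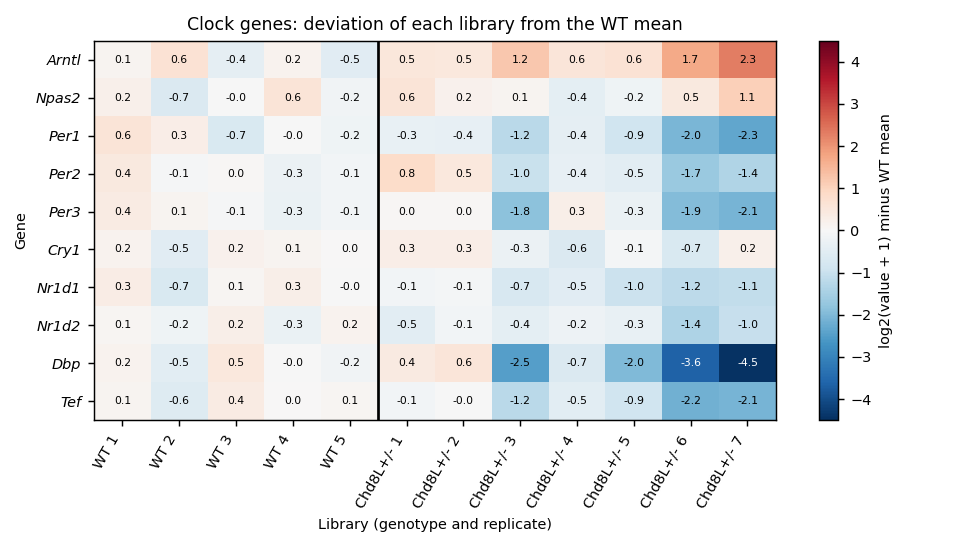
Colour and printed value give log2(value + 1) of each clock gene (rows of the map) in each library (columns) minus the WT mean of that gene. *Arntl* lies above the WT mean in every *Chd8L*+/- library. In replicates 3, 5, 6 and 7 *Dbp*, *Tef* and the *Per* genes lie below it, and replicates 1 and 2 stand near the WT libraries.

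Because *Arntl* and *Dbp* peak at opposite times of day, the difference of their log2 values within a library was taken as a phase-like measure, which depends on library size only through the pseudocount. In WT replicates 1 to 5 *Arntl* minus *Dbp* was -2.12, -0.95, -2.96, -1.88 and -2.44. Counts are not corrected for the length of the genes, so only the order of the libraries is read from these differences. In *Chd8L*+/- replicates 1 to 7 it was -1.96, -2.14, 1.63, -0.86, 0.58, 3.27 and 4.70. Per kilobase of exon, the level of *Arntl* exceeded that of *Dbp* in 3 of the 7 *Chd8L*+/- libraries, replicates 3, 6 and 7, by 1.24-fold, 3.89-fold and 10.7-fold, and in 0 of the 5 WT libraries. These folds depend on the joined exon lengths. Replicates 1 and 2 lay inside the WT range.

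Another 3 differences each share *Arntl* or *Dbp* with the first, so a like order is in part built in, and they are given as values only. *Arntl* minus *Nr1d1* ran from -4.55 to -2.71 in WT and reached -1.15 and -0.59 in *Chd8L*+/- replicates 6 and 7. *Npas2* minus *Dbp* was at most -0.0083 in WT, and was 1.99, 1.18, 3.46 and 4.89 in *Chd8L*+/- replicates 3, 5, 6 and 7. *Per2* minus *Dbp* lay between -1.08 and -0.23 in the 5 WT libraries, and was 0.86, 0.88, 1.31 and 2.45 in the same 4 *Chd8L*+/- libraries. Centred on genotype means, *Per2* and *Dbp* ran together (r = 0.92), so this difference does not set opposite genes against each other.

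**Figure D4:**
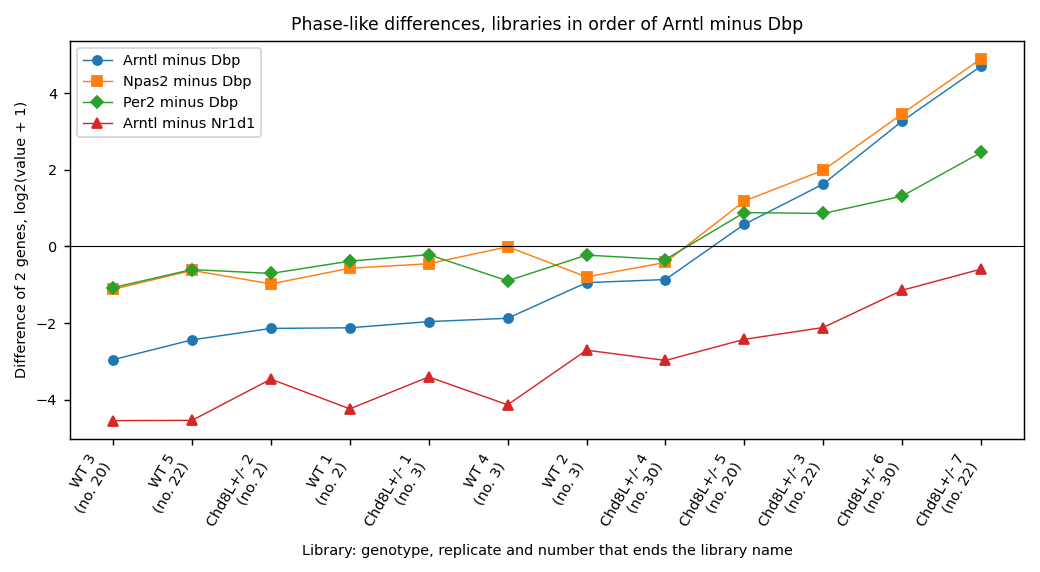
Differences of log2 values between pairs of clock genes in each library, on log2(value + 1), with the libraries placed in order of *Arntl* minus *Dbp* and lines joining the values of 1 pair. For *Arntl* minus *Dbp* the WT libraries lie between -2.96 and -0.95, and the *Chd8L*+/- libraries between -2.14 and 4.70.

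The labels give each library a letter and a number whose meaning is not given in the sources used here. Within a number, *Arntl* minus *Dbp* was -2.12 in WT and -2.14 in *Chd8L*+/- for number 2, and -0.95 and -1.88 in WT against -1.96 in *Chd8L*+/- for number 3. For number 20 it was -2.96 in WT and 0.58 in *Chd8L*+/-, and for number 22 it was -2.44 in WT against 1.63 and 4.70. Number 30, with -0.86 and 3.27, held *Chd8L*+/- libraries only. The *Chd8L*+/- libraries of the small numbers thus lay with WT, and those of numbers 20 and 22 above it, with 1 or 2 libraries a genotype in each and no test.

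To ask whether the members vary together apart from genotype, values were centred on each genotype mean and *Arntl* was compared with the other 9 members over the 12 libraries. It ran opposite to *Tef* (Pearson r = -0.90, permutation p = 0.00016, adjusted over the 9 relations 0.00072, Spearman rho = -0.90, permutation p = 0.00104). For *Dbp* r was -0.84 (permutation p = 0.00015, adjusted 0.00072) and rho was -0.83 (permutation p = 0.00603). *Nr1d2*, *Per3*, *Nr1d1* and *Per2* also passed, at r of -0.83, -0.76, -0.69 and -0.71 (permutation p of 0.00536, 0.0137, 0.0225 and 0.0284, adjusted 0.0161, 0.0308, 0.0406 and 0.0426) and rho of -0.82, -0.78, -0.71 and -0.79 (permutation p of 0.00413, 0.0150, 0.0188 and 0.0111). Of the 9485 other genes with a mean of at least 100, 1.55% had an r with *Arntl* at least as far from 0 as that of *Nr1d1*, the weakest of these 6, and 0.907% were as opposite. *Per1* at -0.63 (permutation p = 0.0509, adjusted 0.0655), *Npas2* at 0.43 (permutation p = 0.190, adjusted 0.213) and *Cry1* at -0.22 (permutation p = 0.561, adjusted 0.561) did not, and their rho was -0.67, 0.32 and -0.38 (permutation p of 0.0406, 0.338 and 0.295).

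Fewer of these relations passed when most single *Chd8L*+/- libraries were left out, as given in the last section. *Chd8L*+/- replicates 6 and 7 were the libraries farthest from the median of *Arntl*. Without them, over 10 libraries, r stayed past the threshold for *Tef*, at -0.77 (permutation p = 0.00248, adjusted 0.0223), and for *Dbp*, at -0.55 (permutation p = 0.00731, adjusted 0.0329). It no longer passed for *Nr1d2*, *Per3*, *Nr1d1* and *Per2*, at -0.72, -0.43, -0.50 and -0.39, and changed sign for *Per1*, to 0.15, and *Npas2*, to -0.15. Within the 7 *Chd8L*+/- libraries alone 6 relations passed, with *Per1* among them and *Nr1d1* not. *Per1* had the r farthest from 0, at -0.98 (exact permutation p = 0.000595, adjusted 0.00268), followed by *Tef* at -0.93 (exact permutation p = 0.00179, adjusted 0.00402), *Dbp* at -0.92 (exact permutation p = 0.000198, adjusted 0.00179) and *Per3* at -0.92 (exact permutation p = 0.000992, adjusted 0.00298). *Nr1d2* at -0.84 and *Per2* at -0.83 passed too (exact permutation p of 0.0292 and 0.0234, adjusted 0.0438 and 0.0421). *Nr1d1* at -0.77, *Npas2* at 0.71 and *Cry1* at -0.09 did not (exact permutation p of 0.0476, 0.0816 and 0.881, adjusted 0.0612, 0.0917 and 0.881). The relations were not tested in the 5 WT libraries alone, so they are not shown for each genotype. In WT replicates 1 to 5 *Arntl* lay 0.12, 0.64, -0.41, 0.17 and -0.52 from its WT mean of log2 values. *Per1* lay 0.58, 0.30, -0.69, -0.01 and -0.18 from its own, *Per3* 0.36, 0.13, -0.05, -0.31 and -0.12, and *Tef* 0.12, -0.57, 0.35, 0.03 and 0.07.

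**Figure D5:**
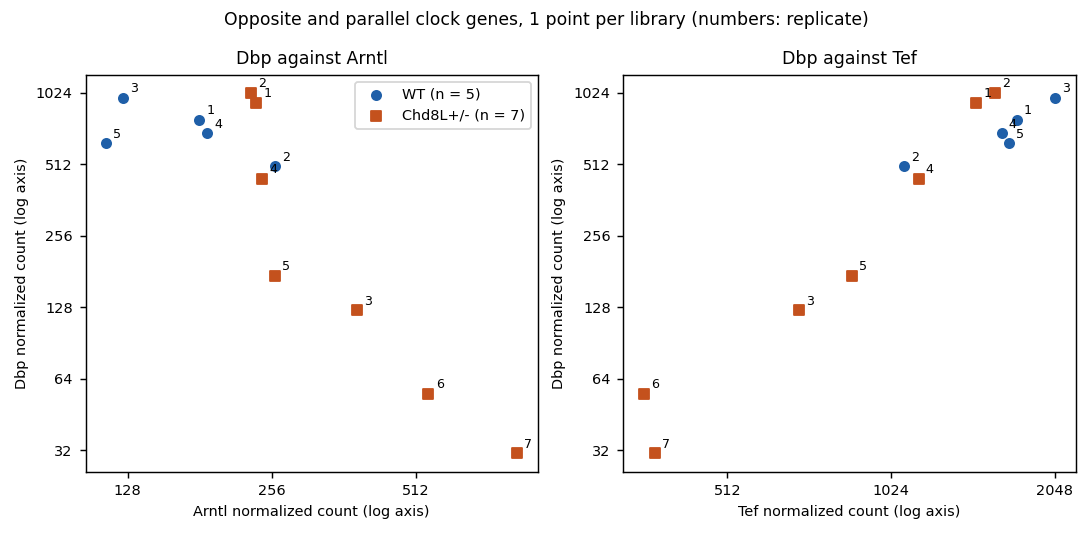
Normalized counts (log axes) of *Dbp* against *Arntl*, left, and of *Dbp* against *Tef*, right, with 1 point a library, WT as circles, *Chd8L*+/- as squares and the replicate number beside each. *Chd8L*+/- replicates 6 and 7 lie at the end with the most *Arntl* and the least *Dbp* and *Tef*.

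Among the 45 pairs of members, the closest were *Dbp* and *Tef* at r = 0.96, *Per2* and *Dbp* at 0.92 and *Per2* and *Tef* at 0.90, given as a description over the same 12 libraries and on the same size factors. *Cry1* was closest to *Npas2*, at 0.60. Of the same 9485 other genes, those most like *Dbp* were *Usp2* (r = 0.95), *Anxa7* (0.92) and *Herpud1* (0.90), and those most opposite were *Stk38* (-0.93), *St5* (-0.93) and *Map3k14* (-0.91). Those most like *Arntl* were *St5* (0.93), *Uck1* (0.87) and *Nbas* (0.83), and those most opposite *Birc3* (-0.94), *Anxa7* (-0.89) and *Guca2a* (-0.86).

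Of 16 other clock genes listed, 14 were tested and 0 were called by limma, with 10 lower and 4 higher, 4 of them past 0.05 before adjustment beside the 24.3% of all genes, and a median log2 fold change of -0.18. Those 4 were *Hlf*, a relative of *Dbp* and *Tef*, at -1.38 (SE 0.50), *Fbxl21*, a ubiquitin ligase part that acts on CRY, at -1.16, *Ciart*, a repressor of the BMAL1 pair, at -0.91, and *Bhlhe40*, an E-box repressor, at -0.83 (SE 0.25). Their adjusted p by limma were 0.136, 0.154, 0.171 and 0.121. edgeR called 0 of the 14 and DESeq2 2, *Bhlhe40* and *Fbxl21*, with adjusted p of 0.0462 and 0.0430, beside 6.29% of all genes called by DESeq2. Without WT replicate 2 limma called the same 2 genes, with adjusted p of 0.016 and 0.00487, in a fit that called 27.6% of all genes. *Clock*, the usual partner of BMAL1, was at 0.20 and *Nfil3*, which opposes DBP at D-boxes, at 0.59, with adjusted p of 0.301 and 0.307 by limma.

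*Hlf* had 230.2, 132, 189.6, 142 and 150.5 normalized counts in WT and ran from 19.6 through 62.8 to 178 in *Chd8L*+/-, lowest in replicates 3 and 7. *Nfil3* had 58.7, 62.9, 173, 110.1 and 119 in WT, and its highest values of all 12 libraries were 344 in *Chd8L*+/- replicate 7 and 221 in replicate 6. *Bhlhe41* was below the mean of 10 needed for the test, and *Rorb* was not analysed here.

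Of 10 genes known to follow the clock in many tissues, limma called 1, *Tsc22d3*, which was lower, beside 0.0234% of all genes. Before adjustment 5 lower and 1 higher were past 0.05, beside 11.8% and 12.5% of all genes. edgeR called 1, beside 0.039%, and DESeq2 2, *Tsc22d3* and *Coq10b*, beside 6.29%. Without WT replicate 2 limma called 6, in a fit that called 27.6% of all genes. Called or not, 8 were lower and 2 higher, with a median log2 fold change of -0.36. *Tsc22d3*, which is also switched on by glucocorticoids, had 1579, 1151, 1346, 1293 and 1386 normalized counts in WT and 548 at the lowest, 746 at the median and 857 at the highest in *Chd8L*+/-. The genotypes did not overlap, and its log2 fold change of -0.88 (SE 0.12) had an adjusted p of 0.0375 by limma, with adjusted p of up to 0.2365 over the alternatives. *Usp2*, a clock-driven ubiquitin protease, was at -0.68 with an adjusted p of 0.125 by limma, and *Tspan4* at -0.06 with 0.912. Of 7 transport and lipid genes known to be rhythmic in the intestine, 0 were called by limma, with 3 past 0.05 before adjustment beside 24.3% of all genes. The median log2 fold change of the 7 was -0.60. Their log2 fold changes ran from -1.06 for *Slc2a5*, a fructose transporter, to -0.16 for *Mttp*, which loads lipid onto lipoproteins. That of *Abcb1a*, a drug efflux pump, was -0.16 by limma but 0.12 by edgeR and 0.11 by DESeq2. DESeq2 called 2 of the 7, *Slc5a1* and *Slc2a5*, as did limma without WT replicate 2, beside 6.29% and 27.6% of all genes.

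Other lists moved with the same libraries in part. The summed level of 8 glucocorticoid response genes was 7977 to 10860 in WT and 5120 to 8227 in *Chd8L*+/-, where replicates 6, 3 and 7 were lowest at 5120, 5403 and 5809. Of these 8, 5 were lower and 3 higher, with a median log2 fold change of -0.58. limma called 1, *Tsc22d3*, beside 0.0234% of all genes. DESeq2 called 3, *Tsc22d3*, *Klf9* and *Ddit4*, beside 6.29%. Without WT replicate 2 limma called 4, in a fit that called 27.6% of all genes. Genes that respond to tissue handling summed to 9979 to 17800 in WT and 5502 to 11740 in *Chd8L*+/-. Of these 11, 10 were lower and 1 higher, with a median log2 fold change of -0.57. Before adjustment 4 were lower past 0.05 by limma, beside 11.8% of all genes. Without WT replicate 2 limma called 5, in a fit that called 27.6% of all genes. With all libraries limma called 2, *Hspa1a* and *Hspa1b*, near-identical copies whose reads are uncertain between them. Each had an adjusted p of 0.0375 by limma and of up to 0.2365 over the alternatives. With *Tsc22d3* they were the 3 genes called of 12808, the 0.0234% above. *Chd8L*+/- replicates 6 and 3 were lowest there, at 5502 and 6286, and replicate 7 was at 9772. Stromal markers, 4 of 6 tested, summed to 8.0 to 307.5 in WT and 33.7 to 1220 in *Chd8L*+/-, and smooth muscle markers to 86.7 to 249.6 and 68.3 to 1999. Both were lowest among *Chd8L*+/- libraries in replicate 6 and highest in replicate 5, an order other than that of *Arntl* and *Dbp* there. Among WT libraries both were highest in replicate 2, at 307.5 and 249.6. That library had the most *Arntl* and the least *Dbp* in WT, at 259.8 and 501 normalized counts. Of these markers 4 stromal and 1 smooth muscle gene were at 0 in at least 1 library. Myeloid markers, 6 of 6 tested, summed to 1108 to 3024 in WT and 1678 to 3717 in *Chd8L*+/-, T cell markers, 6 of 6, to 908 to 1873 and 933 to 2061, and B and plasma cell markers, 6 of 6, to 483 to 2013 and 250.4 to 4228. The median log2 fold change was 2.17 over the stromal, 1.68 over the smooth muscle, 0.64 over the myeloid, -0.17 over the T cell and -0.40 over the B and plasma cell markers tested. limma called 0 genes of each of these 5 marker lists. Before adjustment 3 of the 4 stromal, 1 smooth muscle and 1 myeloid gene were higher past 0.05, beside 12.5% of all genes. DESeq2 called *Itgam* and *Acta2*, beside 6.29% of all genes. Without WT replicate 2 limma called *Col1a1*, *Col1a2*, *Col3a1*, *Lyz2* and *Itgam*, all higher, in a fit that called 27.6% of all genes. The most abundant transcript, mitochondrial *COX1*, took 12.3% of the reads in *Chd8L*+/- replicate 7 and 3.08% to 7.96% in the other 6, with 9.26% in WT replicate 2. Of the 8 epithelial markers limma called 0, and DESeq2 called *Krt18* (log2 fold change -1.15, adjusted p of 0.00861). Without WT replicate 2 limma called *Krt18*, which was lower, and *Krt19*, which was higher. The part of the other lists, epithelial markers among them, in the clock values was not tested.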

How the data were processed

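The authors mapped single-end reads to mm10 with Tophat2 and compared genotypes with DESeq2. The counting program, annotation and strand setting are not given in the sources used here. The deposited table holds a signal per gene and library, reads divided by a size factor (normalized counts), for 12 libraries of 12 mice and 14244 genes, with 0 columns of other samples. Dividing by the value of 1 read gave whole reads for 100% of values within 0.01 in each of the 12 libraries. In WT replicates 3 and 4, where 1 read was worth close to 1, 3.69% and 3.99% of the values were whole before this step. The table had 2 repeated names and 21 names turned into dates.

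Values were taken as log2(value + 1) and the 12808 genes with a mean of at least 10 were tested with limma 3.58.1 (R 4.3.3) and Benjamini-Hochberg adjustment over all of them. Fold changes are on that scale and understate low genes. Single members also had a two-sided exact permutation test, whose smallest p is 0.00126. Correlations used 100000 permutations within genotype (Python 3.11.15, SciPy 1.17.1). Alternatives were edgeR 4.0.16 and DESeq2 1.42.0 on recovered reads, other pseudocounts and filters, blocks and left-out libraries. The scripts were tested on simulated data. The members and lists were chosen with earlier results of these data known. Genes named are the 10 members, *Chd8*, the listed clock and output genes and the 3 most and least like *Arntl* and *Dbp*. Positions are from GENCODE M21, and promoters from RefSeq.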

Additional observations from a re-analysis of the deposited data

Results flagged for a closer look

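In 2 of 28 groups of libraries examined, where chance gives about 1.4, a single library lay far from the rest of its genotype, and both times it was WT replicate 2. For *Cry1* its log2 value of 7.56 was the lowest in WT, with the other 4 between 8.07 and 8.23. For *Arntl* minus *Nr1d1* its log2 difference of -2.71 was the highest in WT, with the others between -4.55 and -4.13. This library also stood among the *Chd8L*+/- libraries on the first principal component.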

How the results depend on the processing

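Of the fold changes of single genes under the alternatives, 223 kept direction and side of the threshold, 4 newly passed it and 3 changed sign: *Cry1* at 0.096 with the library number as a block, and *Per2* at 0.12 and *Per3* at 0.0097 without *Chd8L*+/- replicates 3, 6 and 7, an alternative chosen after seeing the data. The cause was not tested. The count of genes called, 3 by limma, was 5 by edgeR, 805 by DESeq2, 451 with the library letter as a block, 0 with the number as a block, 0 without those 3 libraries, and 0 to 3534 when each library was left out in turn, with 3534 without WT replicate 2. Of the members, 1 was called by DESeq2, 0 with the letter or the number as a block, and 0 to 3 when each library was left out. Of 9 correlations with *Arntl*, 6 were called, 2 without the 2 farthest libraries and 3 to 7 when each library was left out, with 3 without each of *Chd8L*+/- replicates 1, 2, 3, 4, 6 and 7. Without the 2 farthest libraries *Npas2* was at -0.15 and *Per1* at 0.15. Samples with the same replicate number did not deviate together (correlations of 0.189, -0.344, -0.129, -0.171 and -0.228 for numbers 1 to 5, with 1 of 5 WT libraries closest to its own number), and with the replicate number as a block limma called 0 genes and 0 members, with 2327 genes and 2 members at an unadjusted p of 0.05 or less.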
